A study of Mus musculus with 4 samples.

Results

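The simple epithelial keratins described here are Krt7, Krt8, Krt18, Krt19, Krt20 and Krt23, the 6 keratin genes of single-layered epithelia that were looked up by symbol among the 25796 genes listed in this mouse colon series. Each gene is represented by its transcript with the highest mean over the 4 libraries, and all 6 passed the filter on low values. Sequenced was the input RNA of an m6A immunoprecipitation (m6A is N6-methyladenosine, a mark on mRNA), taken before enrichment. There are 2 libraries labelled Ythdf1 KO and 2 labelled WT, all from epithelial cells released from mouse colon by shaking in a chelating buffer with a ROCK inhibitor. The labels do not state strain, age, which part of Ythdf1 was altered, whether the knockout was limited to a tissue, or whether replicates are different animals. The p-values therefore reflect the spread among these libraries alone, and that spread may be technical.

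Keratins are the intermediate filament proteins of epithelial cells. A type I (acidic) keratin and a type II (basic) keratin pair to build each filament, and a keratin without its partner is degraded. In simple epithelia the first pair is Krt8, type II, with Krt18, type I. The intestine adds the type I keratins Krt19, found along the crypt, and Krt20, which marks differentiated surface cells. Mice that lack Krt8 develop colitis with an overgrown colonic epithelium. Ythdf1 encodes a cytoplasmic protein that reads m6A on mRNA and is known to promote translation of marked transcripts, and the comparison asks whether RNA levels differed between epithelium labelled as lacking it and WT epithelium.

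The targeted gene did not bear out the labels at the RNA level. Ythdf1 had 1752 and 1737 normalised reads in the libraries labelled Ythdf1 KO, against 1088 and 775.4 in the WT libraries. Both libraries labelled Ythdf1 KO lay above both WT libraries, with a log2 difference of 0.92 ± 0.28 (SE) and an adjusted p = 0.759 in limma-trend, and the authors' deposited table gave q = 0.0145. A level over the whole transcript does not show whether protein was made, and every direction below follows the labels. Depth was 25936859 and 30951138 recovered reads in the libraries labelled Ythdf1 KO and 21686140 and 24576164 in WT, counted on 1 transcript per gene. Values are read counts that the authors divided by a size factor per library, so they compare a gene between libraries. They are not scaled to transcript length, and the lengths of the spliced transcripts were not used here, so no keratin is ranked above another. In bulk RNA, fewer cells of a type and less RNA per cell cannot be told apart.

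The cells carried the markers of colon epithelium. All 9 fixed epithelial markers were present in every library, with summed levels of 182479 and 206224 in the libraries labelled Ythdf1 KO, against 178455 and 194145 in WT. Epcam, an adhesion molecule of epithelial cells, averaged 32708 ± 1529 in the libraries labelled Ythdf1 KO and 30172 ± 304 in WT (SD, n = 2 each). Of the 9, Epcam alone had both libraries labelled Ythdf1 KO above both WT libraries, and Cdx2 alone had both below. Cdx2 had 8698 and 6526 in the libraries labelled Ythdf1 KO, against 9105 and 10439 in WT. Over genes with a mean of at least 500, which all 9 reach, 22.7% lay above and 12.8% below. Markers of other sources of keratin were scarce. The 8 listed markers of squamous epithelium summed to 148 and 371 in the libraries labelled Ythdf1 KO, against 1122 and 553 in WT. Of the 8, 6 were at 0 in at least 1 library, as were 9179 of all 25796 listed genes. The 5 mesothelial markers summed to 343 and 319 in the libraries labelled Ythdf1 KO, against 459 and 139 in WT, and the 4 urothelial markers to 149 and 438, against 362 and 519 in WT. Leukocyte markers summed to 720 and 610 in the libraries labelled Ythdf1 KO, against 1416 and 1060 in WT. Of the 8, 3 lay below both WT libraries and 0 above, where 21.4% and 14.3% of all tested genes did. Lyz2, 1 of the 3, was at 0 in both libraries labelled Ythdf1 KO, with 47.3 and 73.7 in WT. Over all 25796 listed genes 2621 were at 0 in both libraries labelled Ythdf1 KO.

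None of the 6 keratins passed the test of a difference between the labelled groups. In limma-trend, fitted on log2(value + 1) over 23116 genes, 0 of the 6 had a Benjamini-Hochberg adjusted p under 0.05, and 0 had an unadjusted p under 0.05. As background, 0% of all genes passed the adjusted threshold, and 5.44% had an unadjusted p under 0.05. The tools of count data gave the same answer for the members, 0 of 6 adjusted and unadjusted in edgeR and in DESeq2, where the share of all genes called was 0% and 6.22%. So did limma without a trend, which was also run without the robust option, where the share was 2.73%. In the authors' deposited table, too, 0 of the 6 had q under 0.05, where 4.47% of all genes did on their most abundant transcript. Of the 6, 4 had a higher mean and 2 a lower mean in the libraries labelled Ythdf1 KO. Only Krt18, above, and Krt20, below, had groups that did not overlap, which is 1 of 6 on each side where 14.3% of all tested genes lay above and 21.4% below. Over genes with a mean of at least 500, which all but Krt23 reach, 22.7% lay above and 12.8% below. The median log2 difference of the 6 was 0.12, against -0.09 over all tested genes and 0.07 over the 7431 whose mean reached 500. The plot of values by library shows how close most of the groups lie.

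**Figure D1:**
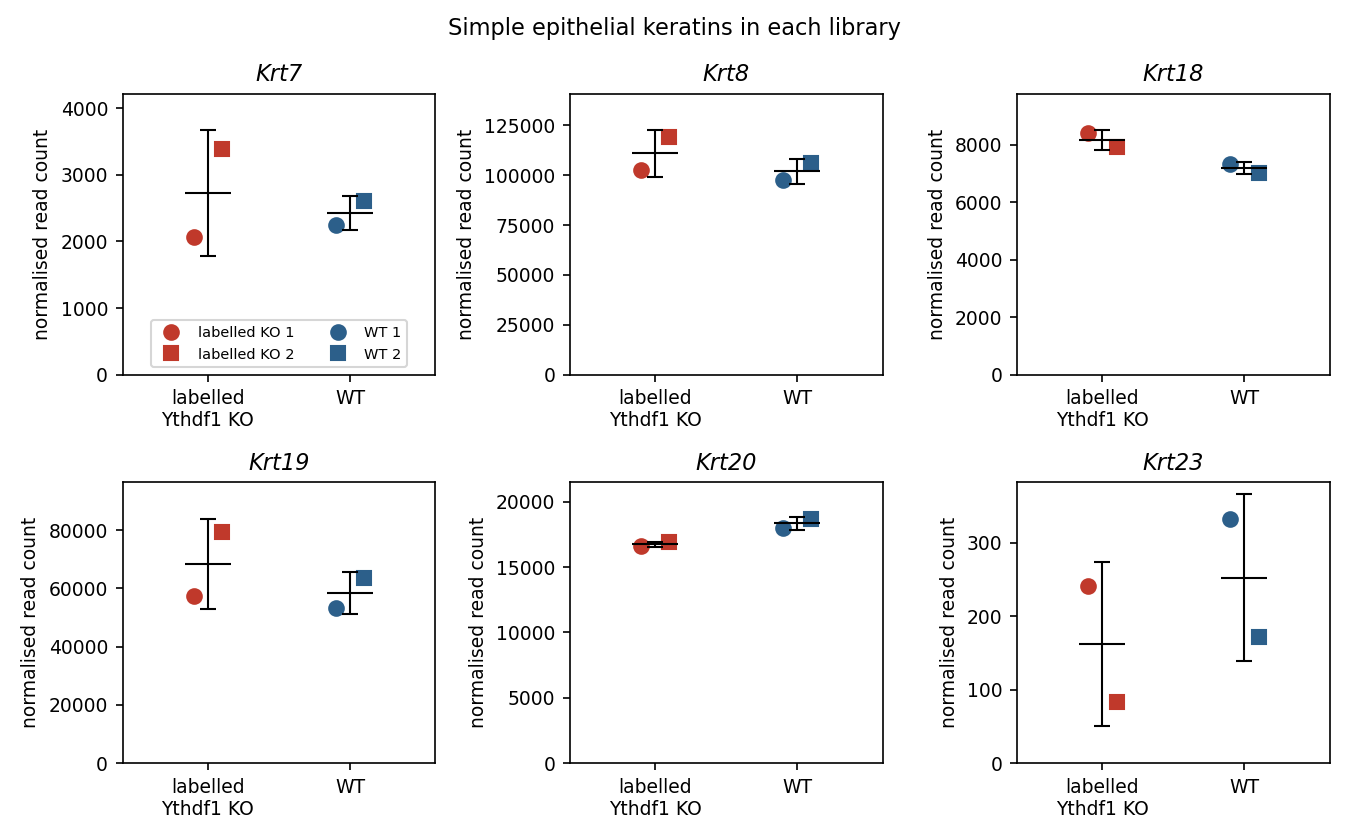
Normalised read count of each simple epithelial keratin (vertical axes from 0, 1 scale per gene) in the libraries labelled Ythdf1 KO (red) and WT (blue). Circles are replicate 1 and squares replicate 2, black bars are the group mean ± SD (n = 2 each). The groups are apart for Krt18 (8397 and 7903 in the libraries labelled Ythdf1 KO, against 7319.7 and 7023 in WT) and Krt20 (16581 and 16888, against 17990.4 and 18704 in WT) and overlap for the other 4.

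Krt8 is the main type II keratin of the gut, and the filaments of simple epithelial cells are built around it. The file lists 1 transcript (NM_031170.2, gene ID 16691) at mm10 chromosome 15, 101996711 to 102004342, on the minus strand. It had 102740.0 and 119172 normalised reads in the libraries labelled Ythdf1 KO 1 and 2, against 97524 and 106241 in WT 1 and 2. The highest value was in KO 2 and the lowest in WT 1, and the groups overlapped, since KO 1 lay below WT 2. The means were 110956 ± 11619 in the libraries labelled Ythdf1 KO and 101883 ± 6164 in WT (SD, n = 2 each), a ratio of 1.09. The log2 difference was 0.12 ± 0.10 (SE), with a 95% interval of -0.12 to 0.36 and an adjusted p = 0.819 in limma-trend. The interval corresponds to a level in the libraries labelled Ythdf1 KO of 0.919 to 1.29 times that in WT, the narrowest among the 4 keratins that averaged higher there. Without KO 2 the log2 difference was 0.013.

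Krt18, the type I partner of Krt8, had its groups apart. It is known as the type I keratin gene that sits in the type II cluster, here at chromosome 15, 102028216 to 102032026 on the plus strand (NM_010664.2, gene ID 16668), next to Krt8 and pointing away from it. It had 8397 and 7903 normalised reads in the libraries labelled Ythdf1 KO, against 7319.7 and 7023 in WT. Both libraries labelled Ythdf1 KO lay above both WT libraries, and the 2 libraries of each group differed little. The means were 8149.8 ± 349 in the libraries labelled Ythdf1 KO and 7171 ± 209.9 in WT (SD, n = 2 each), a ratio of 1.14. The log2 difference of 0.18 ± 0.14 (SE, 95% interval -0.15 to 0.52) had an adjusted p = 0.816 in limma-trend. Over the 7431 genes with a mean of at least 500, 22.7% had both libraries labelled Ythdf1 KO above both WT libraries, and 58.2% had a log2 difference of at least this size in either direction.

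The start regions of this partner pair and of Krt20 are shown because Krt18 and Krt20 were the members whose groups did not overlap, and Krt8 is the filament partner of Krt18. Each runs from 250 bases before to 20 after the annotated start, as RefSeq gives it for GRCm38.p6, on the strand of the gene. The windows are chr15:102004323-102004592 for Krt8, chr15:102027966-102028235 for Krt18 and chr11:99438134-99438403 for Krt20. Capitals mark matches on either strand to the TATA box letters TATAAA, the GC box letters GGGCGG or the AP-1 letters TGANTCA.
Krt8: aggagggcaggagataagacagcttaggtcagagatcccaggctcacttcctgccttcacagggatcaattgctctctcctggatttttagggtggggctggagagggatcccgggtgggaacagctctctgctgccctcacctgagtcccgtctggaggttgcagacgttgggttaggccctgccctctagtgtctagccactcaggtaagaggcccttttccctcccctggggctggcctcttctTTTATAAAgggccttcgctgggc
Krt18: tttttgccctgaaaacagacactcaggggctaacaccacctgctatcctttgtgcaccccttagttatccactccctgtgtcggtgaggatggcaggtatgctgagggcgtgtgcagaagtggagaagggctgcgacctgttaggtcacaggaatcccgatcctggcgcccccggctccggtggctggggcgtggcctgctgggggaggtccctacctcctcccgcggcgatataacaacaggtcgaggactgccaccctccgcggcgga
Krt20: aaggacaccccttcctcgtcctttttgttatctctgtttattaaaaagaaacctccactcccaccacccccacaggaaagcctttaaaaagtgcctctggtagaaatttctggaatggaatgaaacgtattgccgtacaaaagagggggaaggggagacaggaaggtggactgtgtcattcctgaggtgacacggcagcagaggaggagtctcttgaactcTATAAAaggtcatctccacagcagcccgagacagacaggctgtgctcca
Krt20 holds TATAAA starting 29 bases before the start. Krt8 holds it right at the start, where overlapping matches on the minus and plus strand begin 3 and 1 bases before. Krt18 holds none of the 3 strings in its window. Among 32851 RefSeq windows of this length, TATAAA occurs in 12.9%, GGGCGG in 34.1% and TGANTCA in 7.23%. Of the other members, Krt7 holds GGGCGG at 4 places and Krt23 holds none of the 3, and 5 of the 6 genes had a window in the table. These matches describe the letters only, and promoter activity was not measured.

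The balance of the pair varied as much within a group as between groups. The ratio of Krt18 to Krt8 reads, in which library scaling cancels and gene length is the same in every library, was 0.0817 and 0.0663 in the libraries labelled Ythdf1 KO, against 0.0751 and 0.0661 in WT. In each group the first library had the higher ratio. The genes are separated by 23873 bases that hold 2 other listed genes, the predicted Gm36026 and Gm41404.

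Krt7 is the other type II member, a keratin best known from ducts and glands. It lies at chromosome 15, 101412403 to 101427806, plus strand (NM_033073.3, gene ID 110310). It had 2063 and 3395 normalised reads in the libraries labelled Ythdf1 KO, against 2252 and 2606 in WT. The libraries labelled Ythdf1 KO held both the lowest and the highest of the 4 values, and KO 2 was 1.65 times KO 1. The means were 2729 ± 942 in the libraries labelled Ythdf1 KO and 2429 ± 250.1 in WT (SD, n = 2 each), and the log2 difference of 0.13 ± 0.28 (SE, 95% interval -0.56 to 0.82) had an adjusted p = 0.963. It was -0.23 without KO 2 and 0.49 without KO 1, so its direction rests on 1 library.

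Krt19 is a small type I keratin that lacks most of the tail domain. It is listed at chromosome 11, 100140810 to 100145926, minus strand (gene ID 16669). Its more abundant transcript, NM_008471.3, had 57374 and 79413 normalised reads in the libraries labelled Ythdf1 KO, against 53271 and 63628 in WT. KO 2 was highest and WT 1 lowest, with KO 1 between the WT libraries. The means were 68393 ± 15584 in the libraries labelled Ythdf1 KO and 58449.5 ± 7323 in WT (SD, n = 2 each), a ratio of 1.17. The log2 difference was 0.21 ± 0.17 (SE, 95% interval -0.20 to 0.63, adjusted p = 0.819). It was -0.021 without KO 2 and 0.45 without KO 1, where the adjusted p was 0.247, the lowest of any member under the alternatives run. In that fit Krt8 and Krt19 had an unadjusted p under 0.05, as did 9.62% of all genes tested in it.

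Krt19 is the only member with more than 1 listed transcript. The shorter one, NM_001313963.1, shares its 3′ end at 100140810 and spans 2890 bases of genome where the longer one spans 5117. It had 39428 and 56164 normalised reads in the libraries labelled Ythdf1 KO, against 38166 and 42909 in WT. Set against the longer transcript these are ratios of 0.687 and 0.707 in the libraries labelled Ythdf1 KO, against 0.716 and 0.674 in WT, with overlapping groups. The transcripts overlap and no source used here states how shared reads were assigned, so the ratio is not a share of molecules. The authors' deposited table gave log2 fold changes of 0.23 and 0.24 for the longer and the shorter transcript, with q = 0.55 and 0.514.

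Krt20 was the only member with both libraries labelled Ythdf1 KO below both WT libraries. It is a type I keratin of differentiated intestinal cells, at chromosome 11, 99428385 to 99438153, minus strand (NM_023256.2, gene ID 66809). It had 16581 and 16888 normalised reads in the libraries labelled Ythdf1 KO, against 17990.4 and 18704 in WT. The libraries of a group lay within 1.04 times of each other, closer than for any other member. The means were 16735 ± 217 in the libraries labelled Ythdf1 KO and 18347 ± 505 in WT (SD, n = 2 each), a ratio of 0.912. The log2 difference of -0.13 ± 0.11 (SE, 95% interval -0.40 to 0.13) had an adjusted p = 0.819, and it lay between -0.16 and -0.10 when any 1 library was left out. Among genes with a mean of at least 500, 12.8% had both libraries labelled Ythdf1 KO below both WT libraries, and 68.9% had a log2 difference of at least this size in either direction.

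**Figure D2:**
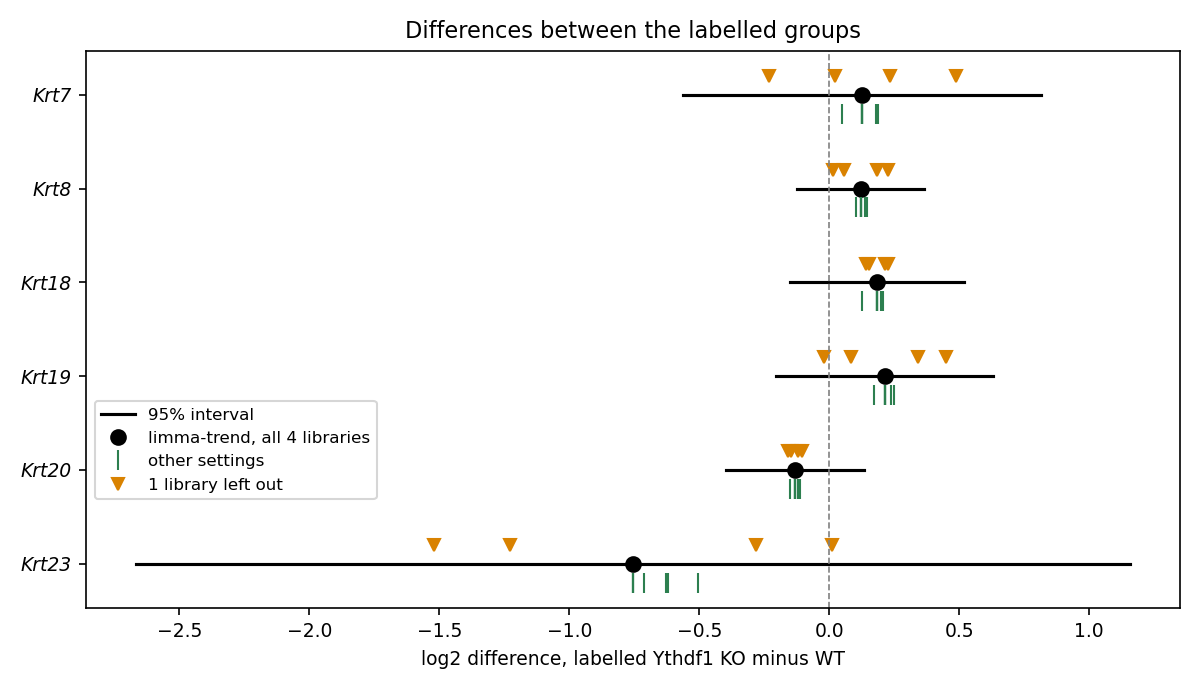
Log2 difference of each keratin, labelled Ythdf1 KO minus WT (horizontal axis), from limma-trend on all 4 libraries (black point) with its 95% interval (line). Green ticks are the other settings and orange triangles the fits with 1 library left out. All 6 intervals include 0, and triangles lie on both sides of 0 for Krt7, Krt19 and Krt23.

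Markers of the surface cells in which Krt20 is found lay on both sides. Of the 10 fixed markers of surface colonocytes, 4 had both libraries labelled Ythdf1 KO below both WT libraries, 2 had both above, 3 had an unadjusted p under 0.05, and 0 passed the adjusted threshold. The shares over genes with a mean of at least 500, which all 10 reach, are 12.8% below and 22.7% above, and 5.44% of all tested genes had an unadjusted p under 0.05. The median log2 difference of the 10 was -0.005, against 0.07 over genes with such a mean. Ceacam1, an adhesion molecule of the surface, averaged 86012 ± 7516 in the libraries labelled Ythdf1 KO and 105567 ± 6003 in WT (SD, n = 2 each). Car1, a carbonic anhydrase, had 73552 and 42374 in the libraries labelled Ythdf1 KO, against 102727 and 116128 in WT. Cyp2c55, a cytochrome P450 enzyme, had 30022 and 6877 in the libraries labelled Ythdf1 KO, against 36857 and 33701 in WT. Guca2a, a fluid-regulating peptide, was the other below, with 16088 and 12423 in the libraries labelled Ythdf1 KO, against 17976 and 24740 in WT. Ceacam1, Car1 and Guca2a were the 3 with an unadjusted p under 0.05 in limma-trend. Car4 and Ceacam20 were the 2 above. Slc26a3, the chloride/bicarbonate exchanger of the surface, Aqp8, a water channel, and Mall averaged higher and Slc37a2 lower in the libraries labelled Ythdf1 KO, with overlapping groups. Slc26a3 had 13732 and 23838 in the libraries labelled Ythdf1 KO, against 18713 and 15165 in WT. The list summed to 254866 and 197835 in the libraries labelled Ythdf1 KO, against 304932 and 326786 in WT. The difference between these sums lies mainly in Car1, Ceacam1 and Cyp2c55, the 3 with the most reads, and the part of surface cell number in the Krt20 value was not tested.

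Crypt markers also differed among themselves. The 10 markers of crypt base and cycling cells summed to 23536 and 25937 in the libraries labelled Ythdf1 KO, against 17806 and 19554 in WT. Of the 10, 4 lay above both WT libraries, 0 lay below and 0 were called. Over genes with a mean of at least 500, which all but Lgr5 and Ascl2 reach, 22.7% lay above and 12.8% below. In limma-trend 2 of the 10, Mki67 and Sox9, had an unadjusted p under 0.05, as did 5.44% of all tested genes. The difference between the sums lies mainly in Mki67 and Sox9. The median log2 difference of the 10 was 0.22, against 0.07 over genes with a mean of at least 500. Sox9, which encodes a progenitor transcription factor, averaged 6981 ± 492 in the libraries labelled Ythdf1 KO and 4199 ± 634 in WT (SD, n = 2 each). Mki67, expressed by dividing cells, averaged 10014 ± 1398 in the libraries labelled Ythdf1 KO and 7367 ± 1241 in WT. Ccnb1 and Lgr5 were the others above. Pcna, a replication clamp, averaged 663 ± 267 in the libraries labelled Ythdf1 KO and 854 ± 21.2 in WT, and Smoc2 and Ascl2, both of crypt base cells, also averaged lower, with log2 differences of -0.42, -0.41 and -0.69 for the 3 and overlapping groups. Top2a and Mcm2 averaged higher in the libraries labelled Ythdf1 KO, with log2 differences of 0.50 and 0.18 and overlapping groups. Axin2, a target of Wnt signalling, had 1941 and 2677 in the libraries labelled Ythdf1 KO, against 2319 and 2186 in WT. The part of these markers' cells in the keratin values was not tested. Goblet cell markers summed to 1041940 and 712444 in the libraries labelled Ythdf1 KO, against 904411 and 831048 in WT, with 1 of 8, Agr2, above and 0 below. All 8 reach a mean of 500, where 22.7% of genes lay above and 12.8% below. Of enteroendocrine and tuft markers 0 of 7 and 0 of 6 lay above and 1 of each below, Pax6 and Dclk1. Over all tested genes 14.3% lay above and 21.4% below.

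Set against the other members within a library, Krt20 was lower in both libraries labelled Ythdf1 KO for 3 of the 5 ratios, and the groups overlapped for the other 2. Its ratio to Krt8 was 0.161 and 0.142 in the libraries labelled Ythdf1 KO, against 0.184 and 0.176 in WT. Its ratio to Krt19 was 0.289 and 0.213 in the libraries labelled Ythdf1 KO, against 0.338 and 0.294 in WT. Its ratio to Krt18 was 1.97 and 2.14 in the libraries labelled Ythdf1 KO, against 2.46 and 2.66 in WT. The groups overlapped for the ratio to Krt7, which was 8.04 and 4.97 in the libraries labelled Ythdf1 KO, against 7.99 and 7.18 in WT. They also overlapped for the ratio to Krt23, which was 68.96 and 204 in the libraries labelled Ythdf1 KO, against 54.1 and 109 in WT. Krt20 lay below and Krt18 above in both libraries labelled Ythdf1 KO, so their ratio could only come out lower there. The ratios reuse the values already given and add no separate support for a lower Krt20. How often ratios of other genes separate the groups was not counted. No such ratio depends on how the libraries were scaled, and none was tested.

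Krt23 was the lowest in reads of the 6 and the most variable. It is a type I keratin that is induced by stress in mouse liver, at chromosome 11, 99477973 to 99493110, minus strand (NM_033373.1, gene ID 94179). It had 240.4 and 82.7 normalised reads in the libraries labelled Ythdf1 KO, against 333 and 172 in WT. In each group replicate 1 was the higher, and the groups overlapped. The means were 162 ± 112 in the libraries labelled Ythdf1 KO and 252 ± 114 in WT (SD, n = 2 each). The log2 difference of -0.76 ± 0.79 (SE) had a 95% interval of -2.67 to 1.16, which spans 0.157 to 2.23 times the WT level, and an adjusted p = 0.851. Without KO 2 it was 0.0089, and without KO 1 it was -1.52.

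Krt23 corresponds to 248 and 100 recovered reads in the libraries labelled Ythdf1 KO, against 295 and 170 in WT. Genes at 0 reads numbered 5240 and 5102 in the libraries labelled Ythdf1 KO, against 3633 and 3370 in WT. Among genes with at least 1 read, the most common class in every library was 64 to 127 reads. It held 3326 and 3167 genes in the libraries labelled Ythdf1 KO and 3991 and 3875 in WT. Counts of 4 to 7 reads were rare, with 283 and 239 genes in the libraries labelled Ythdf1 KO, against 237 and 254 in WT. The lowest mean of any transcript in the table is 11.6, so genes low in all 4 libraries are not among those counted.

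**Figure D3:**
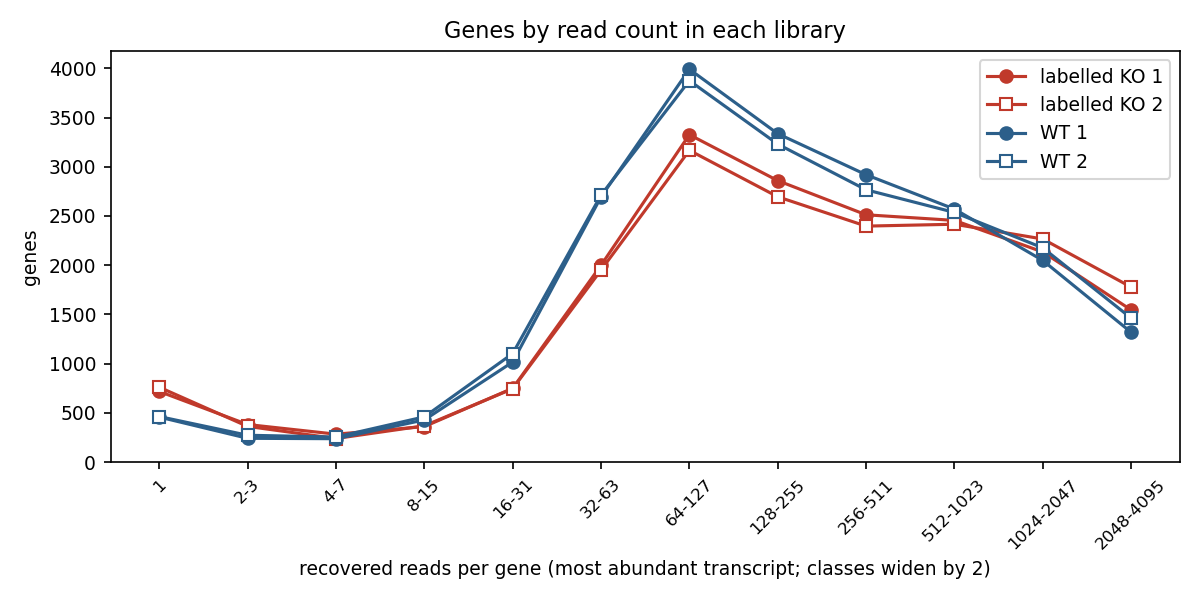
Number of genes (vertical axis) by class of recovered reads on the most abundant transcript (horizontal axis, each class doubling the one before) in the libraries labelled Ythdf1 KO (red) and WT (blue). Genes at 0 reads and those above 4095 are not drawn. Among the classes drawn, the count peaks at 64 to 127 reads in all 4 libraries and dips at 4 to 7 reads. The 4 values of Krt23 lie between 100 and 295 reads.

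The members fell into different patterns over the 4 libraries. Krt8, Krt19 and Krt7 were highest in KO 2 with WT 2 next, Krt18 was highest in KO 1 and lowest in WT 2, and Krt20 was highest in WT 2 and lowest in KO 1. KO 2 over KO 1 was 1.65 for Krt7, 1.38 for Krt19, 1.16 for Krt8, 1.02 for Krt20, 0.941 for Krt18 and 0.344 for Krt23. For the 7431 tested genes whose mean reached 500, the median absolute log2 difference was 0.32 between the libraries labelled Ythdf1 KO and 0.28 between the WT libraries. Krt7 (0.72 and 0.21) and Krt19 (0.47 and 0.26) exceeded the first median but not the second. Krt8 (0.21 and 0.12), Krt18 (0.09 and 0.06) and Krt20 (0.03 and 0.06) lay under both.

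**Figure D4:**
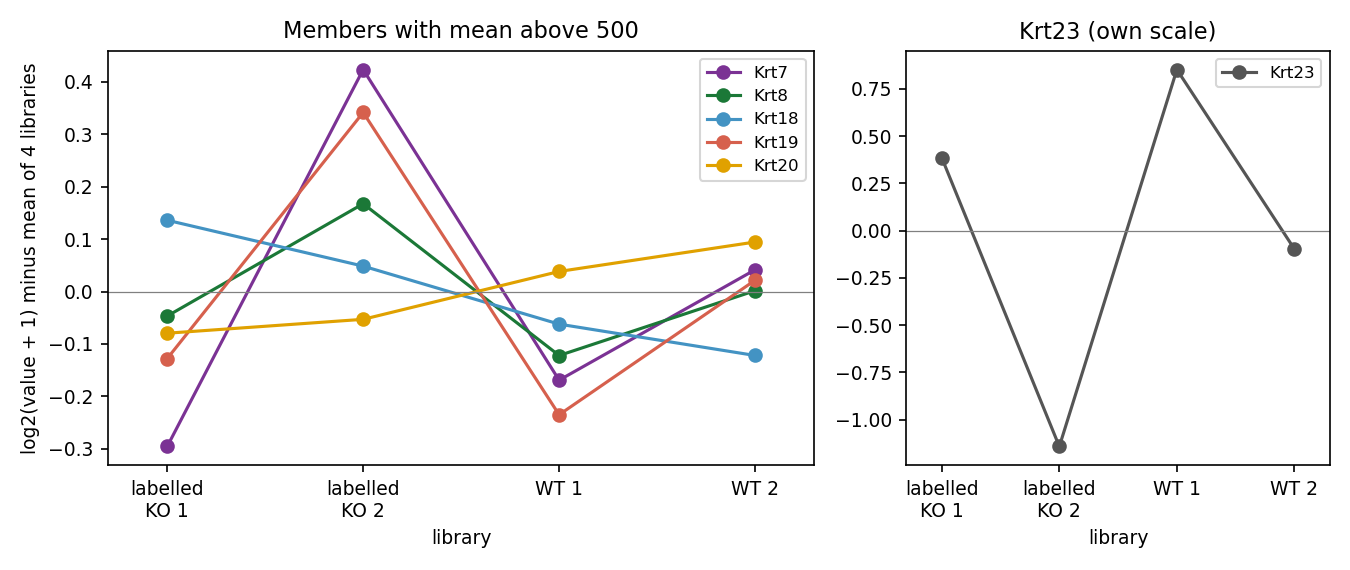
Log2(value + 1) of each keratin minus its own mean over the 4 libraries (vertical axis), in the libraries labelled Ythdf1 KO 1 and 2 and WT 1 and 2 (horizontal axis), with lines joining the points of a gene only to guide the eye. Krt7, Krt8 and Krt19 peak in KO 2, Krt18 is higher and Krt20 lower in both libraries labelled Ythdf1 KO than in either WT library, and Krt23 is drawn on its own scale.

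Likeness of pattern was measured as the root mean square difference of these centred log2 profiles over the 4 libraries, against every other gene with a mean of at least 500. Krt8 was 0.13 from Krt18, its partner, which ranked 1014 of 7430 genes in closeness to it, and 0.11 from Krt19, which ranked 722. Krt19 and Krt7 were 0.0993 apart, and Krt7 ranked 259 in closeness to Krt19. The genes nearest to Krt8 were Tmprss4, a transmembrane serine protease, Nipbl, a cohesin loader, and Pak1, a kinase, at 0.011 to 0.018. The nearest to Krt18 were Mta2, Atf2 and Golga3, at 0.0083 to 0.015. Krt19 lay nearest to Ranbp3, Asxl2 and Kdelr1 (0.016 to 0.020), and Krt20 to Nepro, Ddi2 and Son (0.014 to 0.017). Krt7 lay nearest to Cdc42se2, Psmd6 and Hsd17b12 (0.029 to 0.033), and Krt23 to Chn2, Phactr2 and Vav2 (0.071 to 0.14). Over 4 libraries close matches are many, and they are given as a description.

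The remaining genes with a keratin symbol, most of them known from stratified epithelia, hair and skin, had few reads. The table lists 40 of them, 19 on chromosome 11 beside Krt19, Krt20 and Krt23 and 21 on chromosome 15 beside Krt7, Krt8 and Krt18. Their highest single value was 703, and 29 of the 40 were at 0 in at least 1 library, where 0 of the 6 simple epithelial keratins were. Over all 25796 listed genes, 9179 were at 0 in at least 1 library. Of the 37 tested, 0 passed the adjusted threshold in limma-trend and 2 had an unadjusted p under 0.05 (Krt6a and Krt79, both at 0 in both libraries labelled Ythdf1 KO). The share with an unadjusted p under 0.05 is 5.44% over all tested genes. Of the 37, 11 lay below both WT libraries and 1, Krt80, above, where 21.4% of all tested genes lay below and 14.3% above. These shares vary with level, at 12.8% below and 22.7% above over genes whose mean reached 500. The highest mean of the 40 was 482, and the shares over genes of such low levels were not counted. Of the 40, 10 were at 0 in both libraries labelled Ythdf1 KO, and 0 of the 40 were at 0 in both WT libraries. Over all 25796 listed genes 2621 were at 0 in both libraries labelled Ythdf1 KO and 1100 in both WT libraries. Krt78, a type II keratin, had 651 and 129 normalised reads in the libraries labelled Ythdf1 KO, against 703 and 444 in WT. Krt87, a hair keratin, had 95.01 and 24.8 in the libraries labelled Ythdf1 KO, against 180.3 and 285 in WT. Krt1, the type II keratin of differentiated epidermis, had 0 and 62.0 in the libraries labelled Ythdf1 KO, against 197 and 213 in WT.

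**Figure D5:**
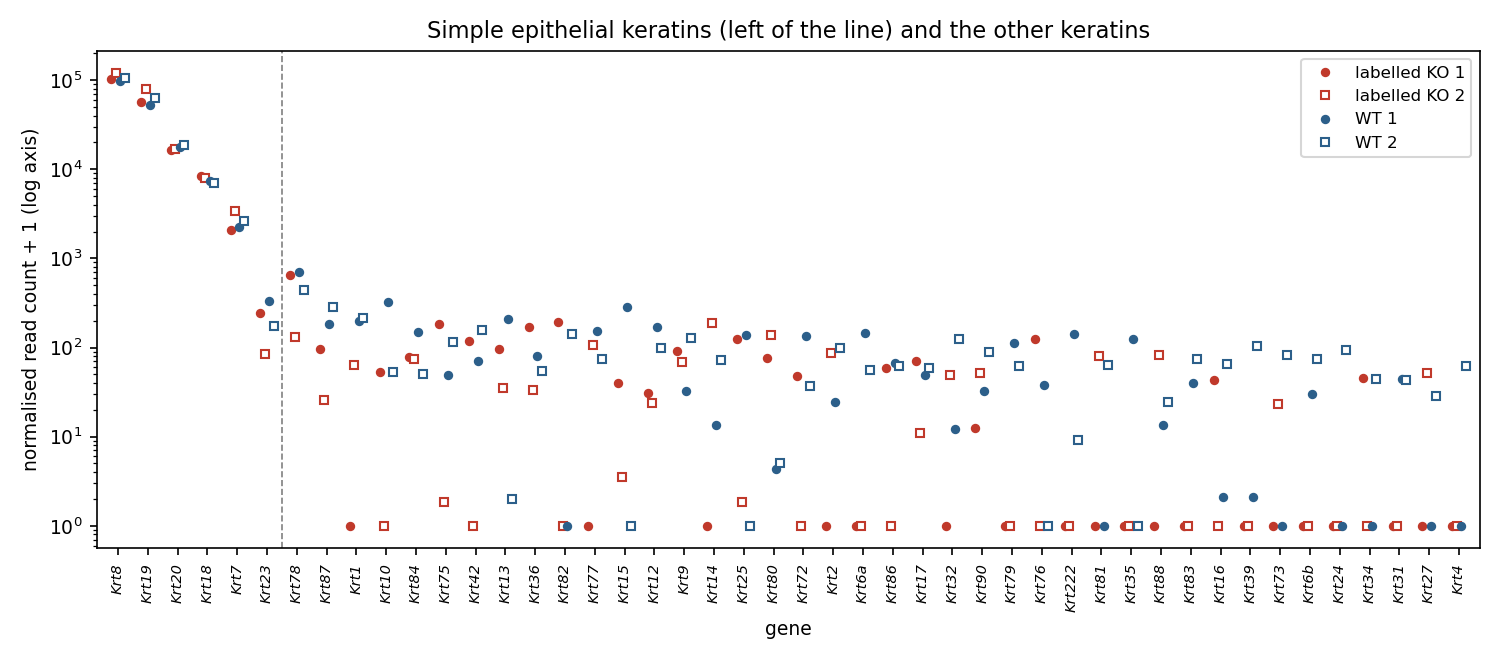
Normalised read count + 1 (vertical log axis) of the 6 simple epithelial keratins (left of the dashed line) and the 40 other listed keratins (horizontal axis, each set sorted by mean) in the libraries labelled Ythdf1 KO (red) and WT (blue), with filled circles for replicate 1 and open squares for replicate 2. Points at 1 are libraries listed at 0, which occur in 29 of the 40 other keratins and in 0 of the 6. They occur in 9179 of all 25796 listed genes.

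Proteins that anchor keratin filaments, or bind keratins, also gave no calls. All 22 were tested, 0 passed the adjusted threshold in limma-trend and 2 had an unadjusted p under 0.05, as did 5.44% of all tested genes. The median log2 difference of the 22 was 0.04, against -0.09 over all tested genes and 0.07 over those whose mean reached 500. Plec, the cytolinker plectin, averaged 101098 ± 360 in the libraries labelled Ythdf1 KO and 104062 ± 1178 in WT (SD, n = 2 each). Dsp, desmoplakin, which ties keratins to desmosomes, averaged 41861 ± 1972 in the libraries labelled Ythdf1 KO and 40991 ± 595 in WT, with a log2 difference of 0.03 ± 0.09 (SE). Eppk1, the keratin-binding cytolinker epiplakin, averaged 22278 ± 163 in the libraries labelled Ythdf1 KO and 19742.5 ± 1944 in WT. Eppk1, Itga6 and Sfn were the 3 above both WT libraries, and Plec, Dst, Pkp2 and Tchp the 4 below. Over genes with a mean of at least 500, which all but Tchp reach, 22.7% lay above and 12.8% below. The shares over all tested genes were 14.3% and 21.4%. The 2 with an unadjusted p under 0.05 were chosen after their values were seen. Itga6, the laminin-binding integrin chain of hemidesmosomes, had 8769 and 10534 in the libraries labelled Ythdf1 KO, against 6141 and 7684 in WT. Tchp, the keratin-binding protein trichoplein, had 152 and 169 in the libraries labelled Ythdf1 KO, against 540 and 377 in WT.

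Among other intermediate filament genes, the 3 nuclear lamins had the most reads, and their groups did not overlap, a pattern that 22.7% of the genes whose mean reached 500 shared in this direction. Lmna, which encodes lamins A and C, had 14137 and 18721 normalised reads in the libraries labelled Ythdf1 KO, against 13074 and 11548 in WT. Its log2 difference of 0.40 ± 0.17 (SE) had an adjusted p = 0.759 in limma-trend. Lmnb2, lamin B2, had 3257 and 2347 in the libraries labelled Ythdf1 KO, against 2269 and 1964 in WT, and Lmnb1, lamin B1, had 2107 and 2407, against 2002 and 2021 in WT. The median log2 difference of this list was -0.21, against -0.09 over all tested genes. The lamins were the only 3 of the 16 tested genes above both WT libraries, and 3 others lay below (Sync, Nefm and Synm, at lower levels). Over all tested genes 14.3% lay above and 21.4% below. Of the 16, 0 passed the adjusted threshold or an unadjusted p of 0.05. Vim, the vimentin of mesenchymal cells, had 218 and 490 in the libraries labelled Ythdf1 KO, against 289 and 475 in WT. Stroma and muscle markers summed to 2092 and 1359 in the libraries labelled Ythdf1 KO, against 1690 and 3363 in WT.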

How the data were processed

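Input RNA of mouse colon epithelium was analysed in 4 libraries, grouped by their titles. Per the submitters' processing notes, the build was mm10, and the tools, given with no role, were Bowtie2 2.2.5, CASAVA 1.8, HOMER 4.10, MACS2 2.1.0, SAMtools 1.3.1 and deepTools 3.3.0. No source used here names the counting program or its use of strand. The deposited expression signal is a read count divided by a size factor, since in each library 100% of values were whole multiples of 1 step, to within 0.001. Per the file headers, the authors also deposited for each transcript its p-value, q-value and log2 fold change.

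Of 87526 transcripts, the one with the highest mean stood for each gene. Genes that reached 1 in 2 or more libraries were fitted with limma-trend 3.58.1 (robust, R 4.3.3) on log2(value + 1), which understates changes of low genes, with genotype label as the only term. A gene was called where its p, adjusted over all genes by Benjamini-Hochberg, was under 0.05. edgeR 4.0.16 and DESeq2 1.42.0 on recovered reads were among 13 alternatives. The unit had been planned as normalised values, and that test was kept. Fits were tested on simulated data. All 6 members matched RefSeq gene identifiers.

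Members and lists (other keratins, other intermediate filament proteins, keratin linkers and binding partners, and cell type markers) were chosen with earlier results of these data known. The text names the members, the 3 most abundant tested genes of each of the first 3 lists, the 3 genes nearest in pattern to each member, and Ythdf1. Marker genes, Itga6, Tchp and genes named for where their groups lay were chosen after their values were seen.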

Additional observations from a re-analysis of the deposited data

How the results depend on the processing

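No member passed an adjusted p of 0.05 under any of the 13 alternatives. Krt8, Krt18 and Krt20 kept their direction under all of them. Under the 9 that kept all libraries (8 for Krt23, whose mean is under 500), log2 differences ranged from 0.05 to 0.19 for Krt7, 0.10 to 0.14 for Krt8, 0.13 to 0.21 for Krt18, 0.17 to 0.25 for Krt19, -0.15 to -0.11 for Krt20 and -0.76 to -0.50 for Krt23. With 1 library left out, where the lone library is assumed to vary like the other group, they ranged from -0.23 to 0.49 for Krt7, 0.013 to 0.23 for Krt8, 0.14 to 0.23 for Krt18, -0.021 to 0.45 for Krt19, -0.16 to -0.10 for Krt20 and -1.52 to 0.0089 for Krt23. The 3 reversals (Krt7, Krt19 and Krt23) all came without KO 2, and without KO 1 an unadjusted p under 0.05 was found for 2 members and for 2101 of 21831 genes (9.62%). Over all genes, limma-trend called 0 (1257 at an unadjusted p under 0.05), limma without a trend 632, DESeq2 1438 and edgeR 0, and between 0 and 36 with 1 library left out; the cause was not tested. Libraries share only a replicate number: deviations of same-numbered libraries correlated at 0.022 over 7431 genes, and with the replicate block 0 genes and 0 members were called and 1760 genes had an unadjusted p under 0.05. In a balanced design the block leaves the differences as they were, at 0.12 for Krt8, 0.13 for Krt7, 0.18 for Krt18, 0.21 for Krt19, -0.13 for Krt20 and -0.76 for Krt23.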

Other observations

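A predicted transcript of the neighbouring Krt78 reaches to within 86 bases of the Krt8 transcript on the same strand of chromosome 15. This transcript, XM_011245680.2, spans 101946001 to 101996624 and had 651 and 129 normalised reads in the libraries labelled Ythdf1 KO, against 703 and 444 in WT. The curated Krt78 transcript, NM_212487.4, which ends at 101954287, had 18.4 and 0 in the libraries labelled Ythdf1 KO, against 1.13 and 178 in WT. In every library most reads of the predicted transcript were thus not counted on the curated one.

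Krt80, a type II keratin, was the only keratin outside the simple epithelial set with both libraries labelled Ythdf1 KO above both WT libraries. It had 74.7 and 137 normalised reads in the libraries labelled Ythdf1 KO, against 3.38 and 4.04 in WT, and an adjusted p = 0.759 in limma-trend.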
